A study of Capra hircus with 6 samples.

Results

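Focal adhesions are the sites where a cell holds on to the extracellular matrix. Integrins, receptors made of an alpha and a beta chain, bind the matrix outside the cell, and a layer of adaptor and actin-binding proteins couples their tails to the cytoskeleton and to kinases such as focal adhesion kinase and SRC. In the mammary gland, integrins that bind laminin anchor luminal and myoepithelial cells to the basement membrane, and in mice beta1 integrin and its partner ILK are known to be needed for alveoli to form and to respond to prolactin. The chromatin at 39 genes of this system is described here: 13 integrin chains and 26 cytoplasmic genes.

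ATAC-seq, which marks open chromatin with a transposase (Tn5) that inserts where no nucleosome blocks it, was run on mammary epithelial cells from the mammary gland of dairy goats (*Capra hircus*). The groups were 3 libraries from the dry period and 3 from the lactation period; the labels give no age, breed, stage within a period or other treatment, and do not say whether the libraries are from different animals, so the authors' p-values measure at most the spread between libraries, which may be technical. The measurement is the authors' deposited table of 30714 regions from the comparison of these groups, with a fold change, a p-value and a Benjamini-Hochberg false discovery rate (FDR) for every region. All fold changes, p-values and FDRs below are those of the authors' deposited table; it holds no value per library, so no spread between libraries can be given, and read depth is unknown. Every listed region has a p under 0.001.

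The genes were taken as a named list, and their regions were selected on the p-value that admits a region to the table, and on position: every row of the table whose centre lay inside one of the genes or within 50 kb of an end of it, whatever its FDR. This gave 322 of the 30714 regions, in 331 gene-region pairs, because 9 regions lay within 50 kb of a pair of the genes. Of the 39 genes, 38 could be placed on a numbered chromosome; *FLNA*, which encodes the actin crosslinker filamin A, lies on an unplaced sequence in the gene table and was not assessed. Since a region is listed only if it differed at that p limit, fold change, p, FDR and set all come from the comparison that chose the regions. They are given as descriptions, without a test.

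The table names its regions in 2 series, called set 1 and set 2 here. No fold change in either is below 1, so a set is read here as the regions with more signal in 1 period than in the other. The sources used here do not tie a set to a period. No direction in terms of dry period or lactation is therefore given below, only the set.

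Regions at the focal adhesion and integrin genes were mostly in set 1. Of the 322 regions, 272 (84.5%) were in set 1 and 50 (15.5%) in set 2, beside 74.5% in set 1 over all listed regions and 76.6% over the 26413 regions within 50 kb of any protein-coding gene. At an FDR under 0.05 there were 94 regions, or 29.2% of the 322, beside 27.8% of all listed regions. By set, 92 of the 272 set 1 regions passed (34.2% of all listed set 1 regions did), and 2 of the 50 set 2 regions (9.23% of all listed set 2 regions). The 2 set 2 regions that passed lay at *ITGB4* and *PARVA*. An FDR under 0.05 was reached at different p-values: the largest p that passed at these genes was 6.15e-05 in set 1 and 5.0e-06 in set 2. At an unadjusted p under 1e-05 there were 53 set 1 and 2 set 2 regions at these genes, and 4327 and 902 over the whole table.

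**Figure D1:**
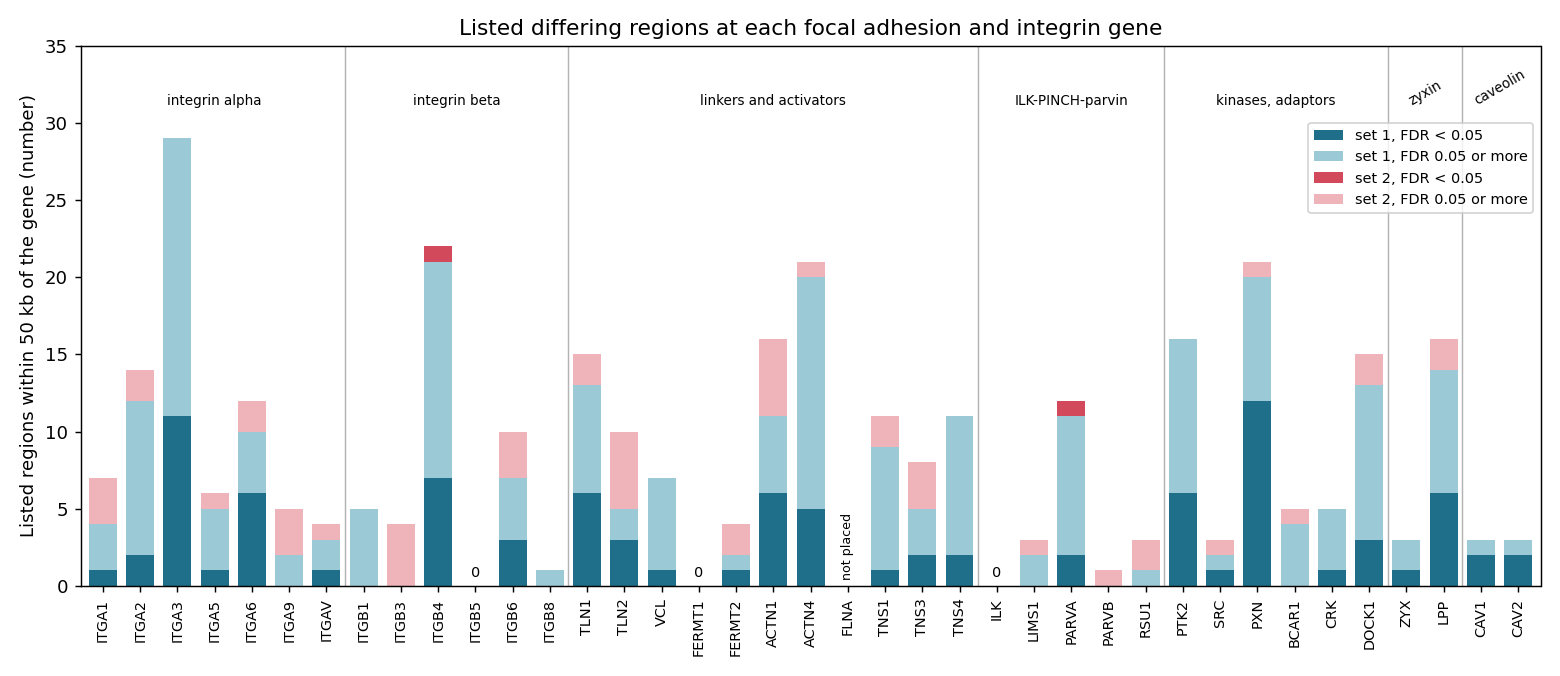
Number of listed regions whose centre lies inside each of the 39 genes or within 50 kb of it, stacked by set and by the authors' FDR, with genes ordered by role; a region near a pair of the genes is counted at both. *ITGA3* has the tallest bar with 29 regions, *ITGB5*, *FERMT1* and *ILK* have 0, *FLNA* was not placed, and dark red, set 2 at an FDR under 0.05, appears only at *ITGB4* and *PARVA*.

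Fold changes were moderate in set 1 and larger in set 2, as over the whole table. The median fold change of the 272 set 1 regions was 2.32 (interquartile range 1.80 to 3.18), beside 2.39 for all set 1 regions. For the 50 set 2 regions it was 3.41 (2.61 to 4.19), beside 3.59. The median width was 300 bp in both sets; over all listed regions set 2 was narrower, at 200 bp, and set 1 also at 300 bp. The widest region at these genes, at *PXN*, spanned 1600 bp, and 10 regions were 800 bp or wider.

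Listed regions were spread over nearly all of the genes. A listed region lay within 50 kb of 35 of the 38 placed genes (92.1%), beside 79.7% of 19063 protein-coding genes, and a region at an FDR under 0.05 at 27 of 38 (71.1%), beside 51.4%. These genes are long, with a median length of 83.4 kb against 17.8 kb over all protein-coding genes, so their windows are wider. Per Mb of window the median was 27.8 listed regions at the 38 genes (interquartile range 19.2 to 53.8) and 18.7 over all genes (6.42 to 42.2). Set 1 alone was present at 10 genes, set 2 alone at 2 (*ITGB3* and *PARVB*), and both sets at 23. A set 2 region thus lay at 25 of the 38 genes (65.8%), beside 37.6% of all protein-coding genes.

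**Figure D2:**
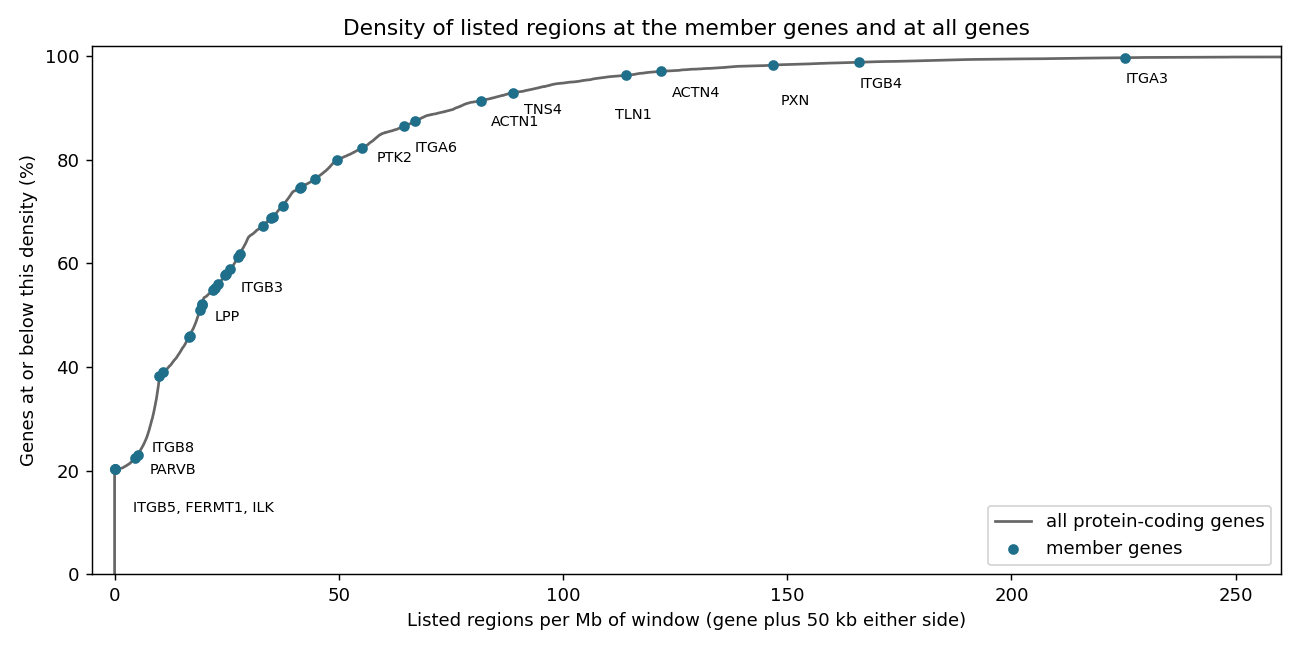
Cumulative share of 19063 protein-coding genes (grey line, vertical axis in %) against the number of listed regions per Mb of the gene plus 50 kb either side, with the 38 placed focal adhesion and integrin genes as points. *ITGA3* at 225 and *ITGB4* at 166 regions per Mb lie far to the right, *LPP* at 19.1 lies near the middle, and *ITGB5*, *FERMT1* and *ILK* stand at 0.

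A larger share of the pairs lay inside the gene than over all protein-coding genes, beside the greater length of these genes given above. Of 279 set 1 gene-region pairs, 43.0% were inside the gene, beside 18.9% of the set 1 pairs of all protein-coding genes. Of 52 set 2 pairs, 51.9% were inside, beside 35.3%. Near an end of the gene (within 3 kb) lay 13.3% of the set 1 pairs and 1 of the 52 set 2 pairs (1.92%), beside 16% and 9.48% for all genes. The 1 set 2 region near an end was at *ITGB3*. The gene table gives no strand, so a start of transcription cannot be told from the end of transcription. For 204 of the 322 regions the nearest protein-coding gene was 1 of the 38, and the other 118 lay nearer to a neighbour. A region inside a gene counts as nearest to that gene, so a region called nearest to a neighbour can lie inside the neighbour.

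**Figure D3:**
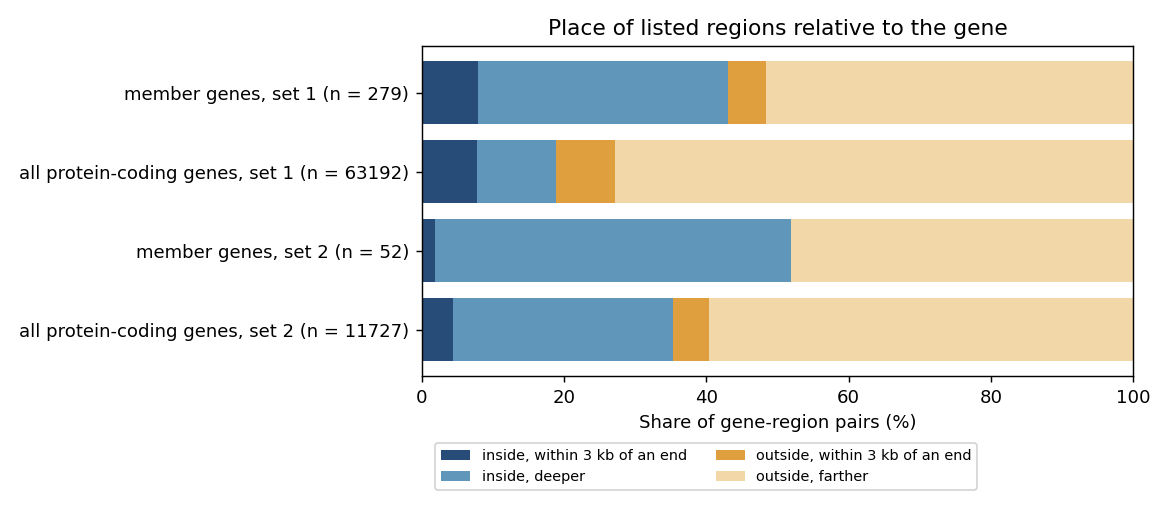
Share of gene-region pairs (horizontal axis, %) by place relative to the gene, for the 38 genes and for all protein-coding genes, separately for set 1 and set 2. The light blue part, inside the gene and more than 3 kb from its ends, is 35.1% of set 1 pairs at the 38 genes against 11.2% at all genes, and 50.0% against 30.9% in set 2.

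The 7 integrin alpha chains, which decide much of what matrix an integrin binds, had 71 distinct regions, 61 in set 1 and 10 in set 2, with 21 at an FDR under 0.05, all in set 1. These 21 were 29.6% of the 71, beside 27.8% of all listed regions. Of all listed set 2 regions 9.23% passed. *ITGA3*, whose product pairs with the beta1 chain as a laminin receptor of epithelia, had the most of any of the 39 genes: 29 regions, all in set 1, with 11 at an FDR under 0.05. At 225 regions per Mb, its window was denser than that of 99.7% of protein-coding genes. Only 2 of the 29 lay inside *ITGA3*, with fold changes of 1.52 (FDR = 0.0443) and 1.77 (FDR = 0.0114). A stretch of 15 kb on chromosome 19 at 36173101 to 36188100 held 14 of them, with fold changes from 1.77 to 6.30. Most of these lay inside *SAMD14*, and the rest were nearest to *SAMD14* or *PPP1R9B*. The region of lowest FDR in the window was in this stretch, at 36181801 to 36182500 (fold change of 1.93, FDR = 8.87e-05). A further 6 lay together over 10.4 kb, most of them inside and all nearest to *PDK2*, a kinase that inhibits pyruvate dehydrogenase, with no FDR under 0.05. Beyond the other end of *ITGA3*, 4 regions over 10.0 kb had fold changes from 2.13 to 2.26, and 3 of them passed.

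*ITGA6*, the alpha chain that joins *ITGB4* in hemidesmosomes and binds laminin, had 12 regions in the authors' deposited table, 10 in set 1 and 2 in set 2, with 6 at an FDR under 0.05. The lowest FDR was that of a set 1 region of 1100 bp at the outer limit of the window, 49.96 kb from the gene on chromosome 2 at 112064501 to 112065600 (fold change of 1.76, FDR = 7.50e-06). Inside the gene, a region of 1000 bp (112149401 to 112150400) stood at 1.47 (FDR = 0.000119). Near the lower-numbered end of the gene 4 set 1 regions lay within 4.10 kb, and the 1 that passed had a fold change of 3.11 (FDR = 0.0224). The sets were separated along the window: set 1 regions ran from 49.96 kb before the lower-numbered end to 35.6 kb after it, and the set 2 regions lay at 69.4 and 105 kb, at fold changes of 5.35 (FDR = 0.177) and 2.55 (FDR = 0.766). The highest fold change, 9.62 in set 1, was at a region of 300 bp that did not pass (FDR = 0.241).

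The collagen receptor chains *ITGA2* and *ITGA1* are neighbours on chromosome 20 and shared 6 regions. *ITGA2* had 14 regions (12 in set 1), 9 of them inside the gene, and *ITGA1* had 7 (4 in set 1). A set 1 region inside *ITGA2* (26029901 to 26030300) stood at 5.18-fold (FDR = 0.0139 in the authors' deposited table). The other region that passed lay between the genes at 26138601 to 26138900, 5.65 kb from *ITGA2* and 12.8 kb from *ITGA1* (fold change of 1.90, FDR = 0.0312). A pair of set 2 regions 100 bp apart inside *ITGA2* (26114801 to 26115600) had fold changes of 3.99 and 3.91 and FDRs of 0.250 and 0.207.

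The other alpha chains had few regions in the authors' deposited table. *ITGAV*, a chain shared by several receptors for vitronectin and latent TGF-beta, had 4, of which a set 1 region inside the gene and 0.671 kb from an end passed (chromosome 2, 126712101 to 126712600, fold change of 1.87, FDR = 0.0103). *ITGA5*, the alpha chain of the fibronectin receptor, had 6. The 1 of these at an FDR under 0.05 had a fold change of 1.41 and lay 23.7 kb away, nearest to *ZNF385A* (FDR = 0.0190), while a region inside *ITGA5* and 0.795 kb from an end had a fold change of 6.15 at an FDR of 0.249. *ITGA9*, a chain of a tenascin receptor, had 5 regions over a window of 467 kb, 2 in set 1 and 3 in set 2, and none passed (lowest FDR = 0.187).

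The 6 integrin beta chains had 42 regions, 34 in set 1 and 8 in set 2, with 11 at an FDR under 0.05 (26.2%, beside 27.8% of all listed regions). *ITGB4*, the beta chain of hemidesmosomes, had 22 regions, 21 in set 1, at 166 per Mb. Of these, 13 lay over 13.5 kb just outside the gene (chromosome 19, 55045301 to 55058800), nearest to *GALK1*, which encodes galactokinase, or *LOC102190909*; their fold changes ran from 1.33 to 2.66 and 5 passed, with a lowest FDR of 0.00295. The only region inside *ITGB4* had a fold change of 2.37 (FDR = 0.0131). The set 2 region, on the other side of the gene (55101001 to 55101300), stood at 3.14-fold (FDR = 0.0392); it lay 5.71 kb from *ITGB4* and nearer to *SAP30BP*. Of the 7 set 1 regions that passed, 5 lay in the stretch, 1 inside the gene and 1 on the side of the set 2 region, 15.7 kb from the gene (fold change of 2.17, FDR = 0.0352).

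*ITGB1*, the most widely shared beta chain, had 5 regions in the authors' deposited table, all in set 1 and none at an FDR under 0.05. Their fold changes were 1.95, 2.29, 2.54, 2.72 and 3.07, with FDRs from 0.112 to 0.263, and 4 of the 5 lay inside the gene within 7.60 kb. *ITGB3*, the beta chain of platelets, osteoclasts and growing vessels, was the reverse: its 4 regions were all in set 2, and none passed. A region of 600 bp inside *ITGB3*, with its centre 50.5 bp from an end (chromosome 19, 46011301 to 46011900), stood at 5.79-fold (FDR = 0.162), and the other 3 had 2.53, 2.69 and 3.00.

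Of the beta chains that pair with *ITGAV* to release latent TGF-beta, *ITGB6* had 10 regions in the authors' deposited table and *ITGB8* had 1. At *ITGB6*, 3 set 1 regions inside the gene passed, with fold changes of 2.80 (FDR = 0.00931), 2.08 (FDR = 0.0235) and 1.96 (FDR = 0.00612). Its 3 set 2 regions lay outside the gene on the side of *PLA2R1*, at fold changes from 2.46 to 4.88 and FDRs of at least 0.394. A region centred 29 bp outside the other end of *ITGB6*, in set 1, stood at 3.50-fold without passing (FDR = 0.144). The region of *ITGB8* had a fold change of 1.85 (FDR = 0.234).

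Some chains that form a receptor are set side by side here. The hemidesmosome pair had 12 regions at *ITGA6* and 22 at *ITGB4*, with 6 and 8 at an FDR under 0.05. The laminin receptor of *ITGA3* with *ITGB1* had 29 and 5, with 11 and 0 passing. The pair of *ITGAV* with *ITGB6* had 4 and 10, with 1 and 3 passing, and *ITGAV* with *ITGB3* had 4 and 4, with 1 and 0 passing. Over all listed regions 27.8% had an FDR under 0.05, and of the listed set 1 regions 34.2%. These counts include regions nearer to a neighbouring gene. The chain itself was the nearest gene for 11 regions at *ITGA6*, 2 at *ITGB4*, 9 at *ITGA3* and 5 at *ITGB1*. It was the nearest for 2 at *ITGAV*, 7 at *ITGB6* and 2 at *ITGB3*. Of the regions that passed at *ITGB4*, 4 were nearest to *LOC102190909*, 2 to *SAP30BP* and 1 to *GALK1*. Of those that passed at *ITGA3*, 6 were nearest to *SAMD14*. None of those that passed at *ITGA6*, *ITGAV* or *ITGB6* was nearest to a neighbour.

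**Figure D4:**
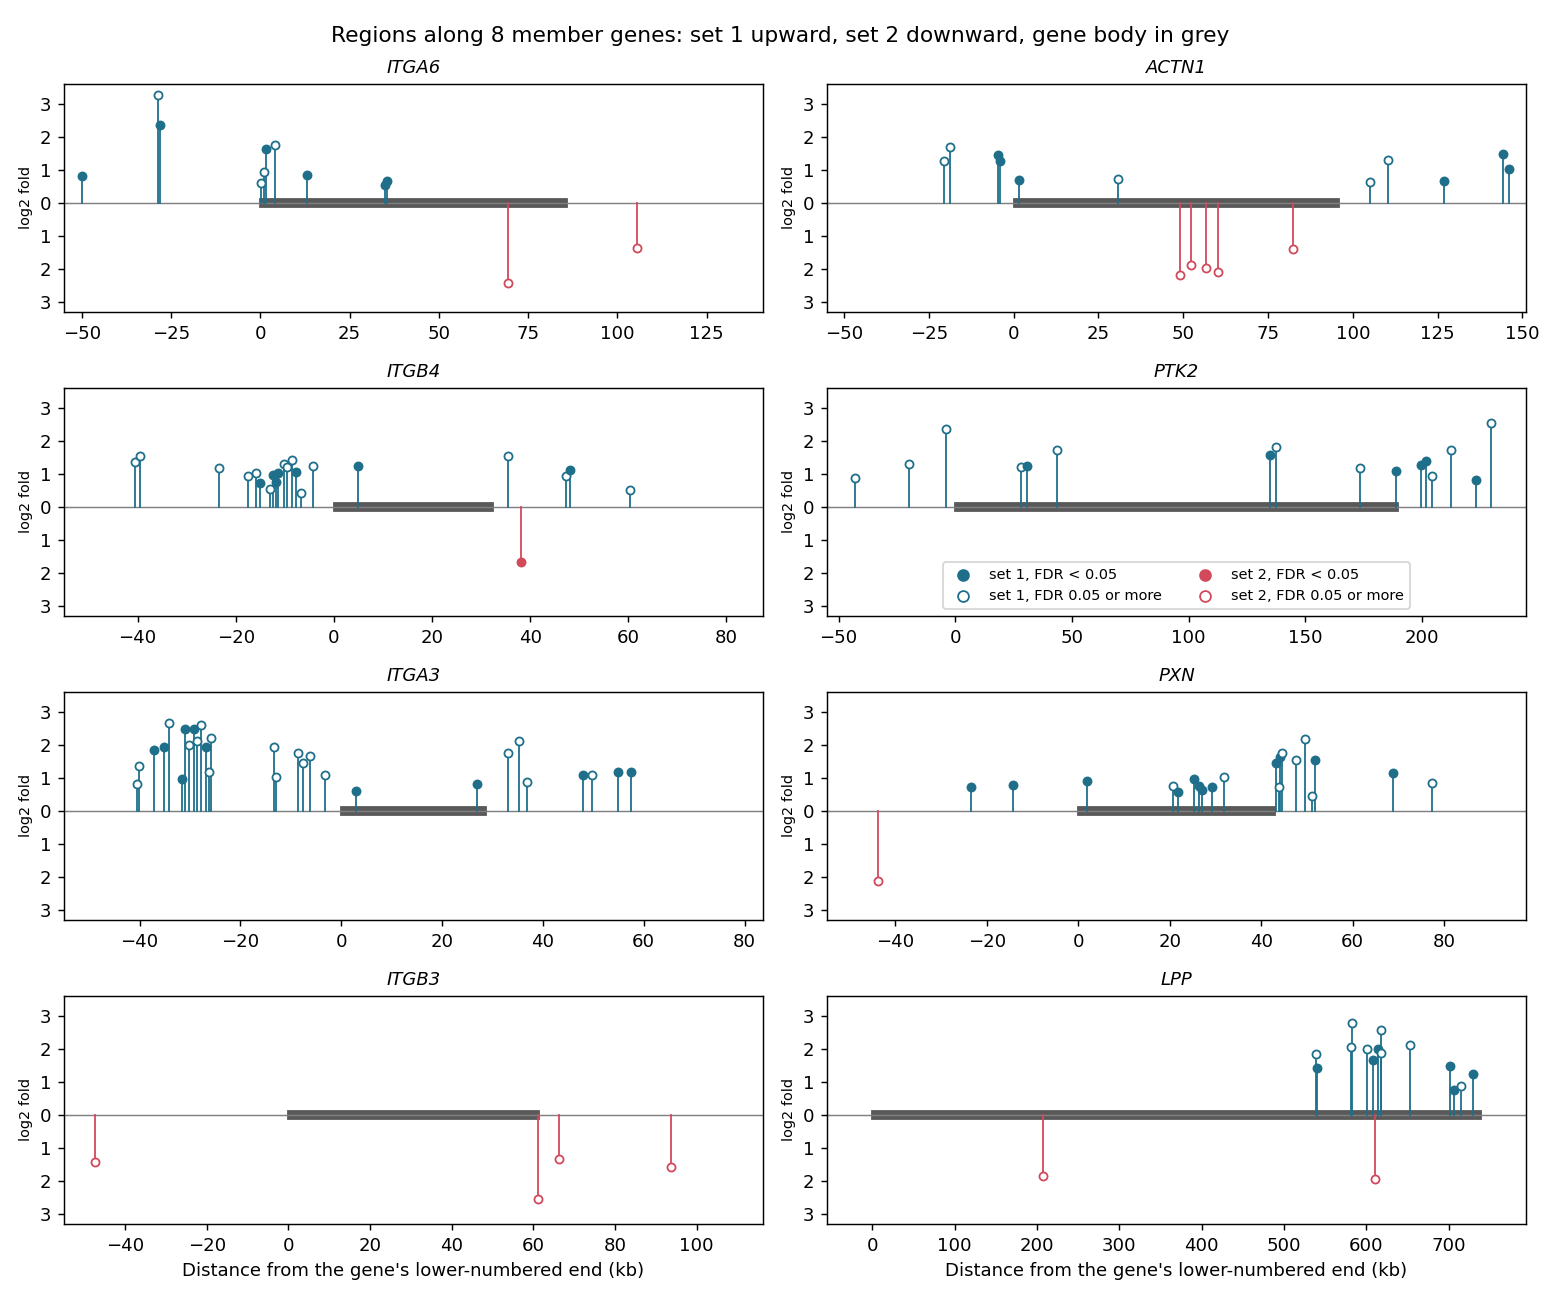
Position of each listed region along 8 of the genes (horizontal axis, kb from the gene's lower-numbered end; grey bar, gene body), with the log2 of the authors' fold change drawn upward for set 1 and downward for set 2; filled points have an FDR under 0.05. At *LPP* all set 1 regions lie in the part of the gene from 539 to 729 kb, at *ACTN1* the 5 set 2 regions lie together inside the gene, and at *ITGB3* only set 2 is present.

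The linkers to actin and the integrin activators, 11 genes of which 10 were placed, had 103 regions, 83 in set 1 and 20 in set 2, with 27 at an FDR under 0.05, all in set 1. These 27 were 26.2% of the 103, beside 27.8% of all listed regions and 9.23% of all listed set 2 regions. The talins bind integrin beta tails and switch integrins to the active state. *TLN1* lies among 9 other genes within its window and had 15 regions in the authors' deposited table, 13 in set 1, of which 6 passed and 1 lay inside the gene (fold change of 2.01, FDR = 0.0320). Its lowest FDR, 0.000761, was at a region of 800 bp nearest to *GBA2* (chromosome 8, 59730501 to 59731300, fold change of 1.76). The long gene *TLN2* had 10 regions and no other protein-coding gene in its window, 5 in set 1 and 5 in set 2. The 3 that passed were set 1 regions deep inside *TLN2*, with fold changes of 2.13 (FDR = 0.000793), 2.58 (FDR = 0.00475) and 2.73 (FDR = 0.0245). Its set 2 regions had fold changes from 1.30 to 3.81 and a lowest FDR of 0.292.

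The alpha-actinins crosslink actin filaments at the adhesion. *ACTN1* had 16 regions in the authors' deposited table, 11 in set 1 and 5 in set 2, and 6 passed. Of these 6, 3 were nearest to *ZFP36L1*, with fold changes from 1.59 to 2.78. The lowest FDR was at a set 1 region 3.95 kb outside the lower-numbered end of the gene on chromosome 10 at 22371701 to 22372100 (fold change of 2.43, FDR = 4.36e-06), next to another at a fold change of 2.72 (FDR = 0.0233). All 5 set 2 regions lay inside *ACTN1*; 4 of them fell within 11.5 kb (22424701 to 22436200) with fold changes from 3.64 to 4.51, and none of these had an FDR under 0.680. *ACTN4* had 21 regions, 20 in set 1, and 5 passed. A pair of the 5 lay inside *ACTN4*, at fold changes of 1.84 (FDR = 0.000929) and 1.74 (FDR = 0.00147). The other 3, at 2.15, 2.23 and 5.50, lay inside *CAPN12*, in a stretch of 9 regions over 9.80 kb that are all nearest to *CAPN12*.

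The tensins tie integrin tails to actin, and *TNS4* encodes a short form that lacks the actin-binding part. *TNS4* had 11 regions in the authors' deposited table, all in set 1, with the lowest FDR at 40374301 to 40374800 on chromosome 19, 6.17 kb outside the gene (fold change of 1.83, FDR = 8.58e-05). A second *TNS4* region passed at a fold change of 3.54 (FDR = 0.0427). *TNS3* had 8 regions, of which 2 inside the gene passed at low fold changes, 1.46 (FDR = 0.00246) and 1.42 (FDR = 0.0377). *TNS3* also had the highest fold change of the whole group in each set: 15.6 for a set 1 region of 200 bp (FDR = 0.181) and 8.09 for a set 2 region of 300 bp (FDR = 0.307), both inside the gene and neither passing. *TNS1* had 11 regions, 9 in set 1, and the 1 that passed lay 10.4 kb outside the gene (fold change of 1.65, FDR = 0.0329).

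*VCL*, the gene for vinculin, which binds talin under tension, had 7 regions in the authors' deposited table, all in set 1 and 6 of them inside the gene. The one that passed, on chromosome 28 (15702101 to 15702700), stood at 1.46-fold (FDR = 0.00941), and the highest fold change, 4.47, was at a region of 200 bp (FDR = 0.236). *FERMT2*, which encodes kindlin-2, a partner of talin in integrin activation, had 4 regions, 2 in each set. Its set 1 region 8.42 kb outside the gene (chromosome 10, 37575401 to 37575800) stood at 2.85-fold (FDR = 0.00121), and the set 2 region inside it had 3.41 (FDR = 0.364).

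The ILK-PINCH-parvin group, a complex that sits on integrin beta tails, had 19 regions over 5 genes, 14 in set 1 and 5 in set 2, with 3 at an FDR under 0.05 (15.8%, beside 27.8% of all listed regions). All 3 were at *PARVA*, the actin-binding alpha-parvin, which had 12 of the 19. A set 1 region inside *PARVA* on chromosome 15 (42034501 to 42035100) stood at 3.19-fold (FDR = 0.000113 in the authors' deposited table), and another 6.19 kb outside the gene had 3.86 (FDR = 0.0179). The set 2 region, also inside the gene (42118301 to 42118700), stood at 6.10-fold with an FDR of 0.0464, near the limit. *PARVB*, the gene for beta-parvin, had 1 region, in set 2, 31.3 kb outside the gene and nearest to *SAMM50* (fold change of 4.54, FDR = 0.0928). *LIMS1*, which encodes the adaptor PINCH1, had 2 set 1 regions at 1.72 and 1.79 and 1 set 2 region at 4.16, and *RSU1*, whose product binds PINCH1, had 1 set 1 region at 1.71 and 2 set 2 regions at 2.54 and 3.41; none of these 6 passed (lowest FDR = 0.118).

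The 6 genes of the kinase and adaptor group had 65 regions, 60 in set 1 and 5 in set 2, and 23 of them, all in set 1, had an FDR under 0.05. These 23 were 35.4% of the 65, beside 27.8% of all listed regions and 34.2% of all listed set 1 regions. *PTK2*, which encodes focal adhesion kinase, had the lowest FDR at any of these genes, at a region deep inside the gene on chromosome 14 at 79227701 to 79228300 (fold change of 2.94, p = 6.02e-16 and FDR = 1.15e-10 in the authors' deposited table). All 16 *PTK2* regions were in set 1, 7 of them inside the gene. The other 5 that passed had fold changes from 1.76 to 2.62, among them a region 9.79 kb outside the gene (FDR = 0.00011) and one inside it 0.814 kb from an end (fold change of 2.10, FDR = 0.0208). The highest fold change at *PTK2*, 5.85, was at a region 39.8 kb outside (FDR = 0.0570).

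*PXN*, which encodes paxillin, the scaffold that recruits focal adhesion kinase and vinculin, had the most regions at an FDR under 0.05: 12 of 21 in the authors' deposited table. Its set 1 regions numbered 20, at 147 listed regions per Mb, a density above that of 98.3% of protein-coding genes. *PXN* itself was the nearest gene for 11 of the 21 regions. Of the 12 that passed, 2 were nearest to *SIRT4* and 2 to *GCN1*. The regions that passed had low fold changes, from 1.49 to 3.10, and included 3 of the 10 regions of 800 bp or more. The widest, of 1600 bp on chromosome 17 at 8500801 to 8502400, lay 14.4 kb outside *PXN* and nearest to *SIRT4* (fold change of 1.72, FDR = 6.35e-07). Inside the gene a stretch of 11.3 kb (8536601 to 8547900) held 7 regions, of which 5 passed; its lowest FDR was 9.67e-06, at a fold change of 1.64. Just outside the other end, 8 regions over 8.90 kb were nearest to *PXN*, the ribosomal stalk gene *RPLP0* or *GCN1*, and 3 passed. The 1 set 2 region lay 43.9 kb away (fold change of 4.38, FDR = 0.360).

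*DOCK1*, an exchange factor that activates RAC1, had 15 regions in the authors' deposited table, 14 of them inside this gene of 569 kb. The 3 *DOCK1* regions that passed were in set 1, with fold changes of 3.02 (FDR = 0.00512), 1.55 (FDR = 0.0224) and 1.39 (FDR = 0.00971). The adaptors that lie upstream of it had fewer: *BCAR1*, which encodes the SRC substrate p130Cas, had 5 regions with a lowest FDR of 0.0719, and *CRK* had 5, all in set 1, of which 1 passed 30.9 kb outside the gene and nearest to *MYO1C* (fold change of 1.93, FDR = 0.00870). *SRC*, the tyrosine kinase that acts with focal adhesion kinase, had no region inside the gene. Its 3 regions lay 28.6 kb or farther from it, and 1 passed narrowly (fold change of 1.96, FDR = 0.0476).

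Of the zyxin family, LIM proteins that respond to tension on actin, *LPP* is the longest of the 39 genes and held all of its 16 regions within its 739 kb. The 14 set 1 regions of *LPP* all lay between 539 and 729 kb from its lower-numbered end, and the longer part before that held 1 listed region, in set 2 (at 207 kb, fold change of 3.62, FDR = 0.0906). At *LPP* 6 regions of the authors' deposited table passed, all in set 1, with fold changes from 1.70 to 3.94; the lowest FDRs were 8.87e-05 at 78891501 to 78892000 on chromosome 1 (fold change of 2.37) and 9.46e-05 at 78702501 to 78703400 (2.69). Within 10.2 kb of *LPP* (78770601 to 78780800) lay 4 set 1 regions and the second set 2 region (fold change of 3.80, FDR = 0.224), so that the sets were interleaved there. The short gene *ZYX* had 3 set 1 regions, none inside it; the 1 that passed lay 21.6 kb away and nearest to *EPHA1* (fold change of 2.38, FDR = 0.0223).

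The caveolin genes *CAV1* and *CAV2* encode the coat proteins of caveolae, membrane pits that flatten under stretch, and lie side by side on chromosome 4. They shared the same 3 regions, all in set 1 in the authors' deposited table. A region of 900 bp between the genes at 68395301 to 68396200, 3.43 kb from *CAV2* and 16 kb from *CAV1*, stood at 4.56-fold (FDR = 0.00224). A second, inside *CAV1* and 1.16 kb from an end (68412701 to 68413100), had 1.80 (FDR = 0.00968), and the third, 2.39 kb outside *CAV1*, had 2.2 (FDR = 0.0538).

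**Figure D5:**
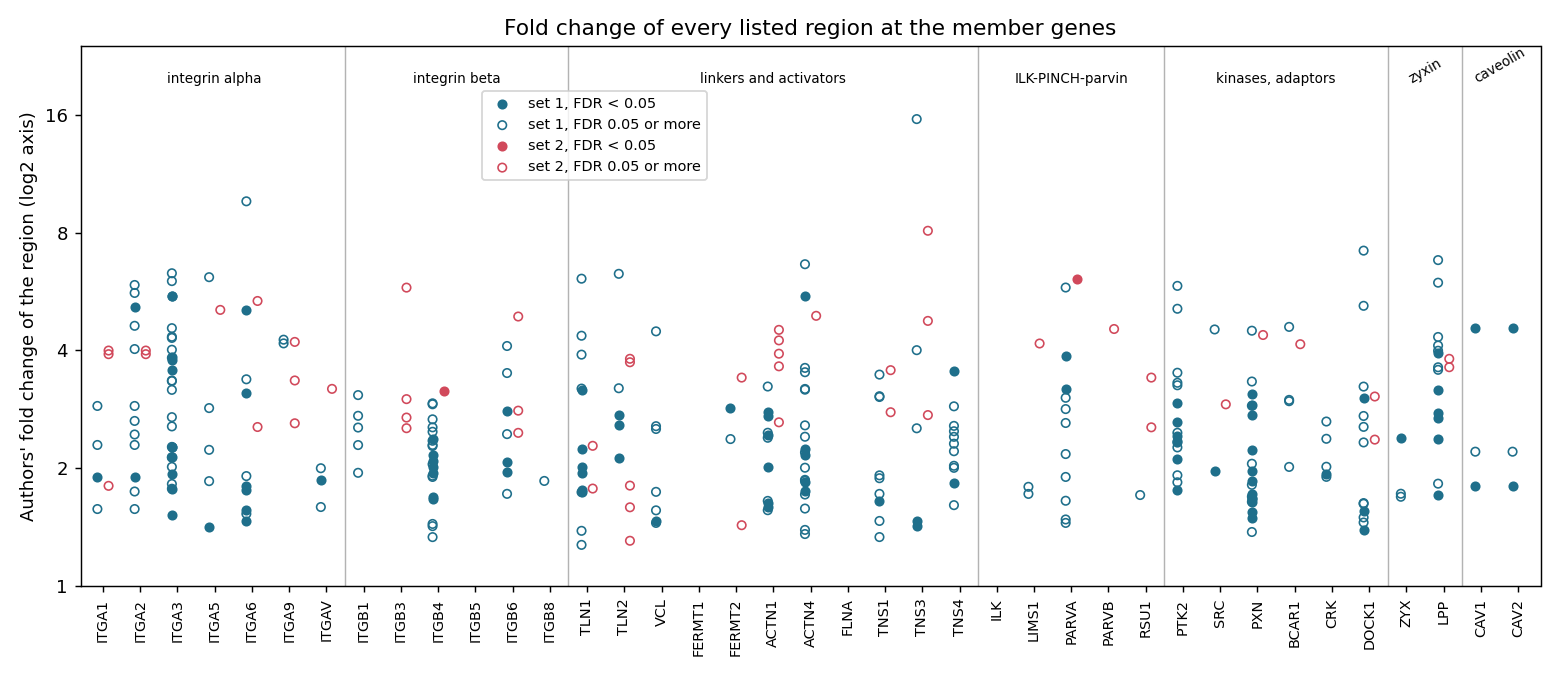
Authors' fold change (vertical axis, log2 scale) of every listed region at each gene, set 1 in blue and set 2 in red, filled where the FDR is under 0.05; genes are ordered by role and regions near a pair of the genes appear at both. Most filled points lie below a fold change of 4, while the highest points, such as 15.6 at *TNS3* and 9.62 at *ITGA6*, are open.

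The regions with the strongest statistical support and those with the largest fold changes were mostly different regions. Of 33 genes with at least 2 listed regions, the region of lowest p and the region of highest fold change were the same at 5 and differed at 28. The 5 include *CAV1* and *CAV2*, where it is the same shared region. This count was not made over all protein-coding genes, and a gene with many listed regions has more room for a difference. The lowest-p regions had a median fold change of 1.96 and a median width of 500 bp, and the highest-fold regions 4.56 and 300 bp. Of 55 regions with a fold change of 4 or more, 7 (12.7%) had an FDR under 0.05, against 41 of 105 (39%) with a fold change under 2. Over all listed regions these shares were 17.3% and 32.5%. The sets differed in this: in set 1 the shares were 15% and 41.4% at these genes and 26.4% and 35.5% over the whole table, while in set 2 the order was the other way round, with 1 of 15 and 0 of 6 at these genes and 8.44% and 6.53% over the whole table.

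For the placed genes without a region, the nearest listed region lay 98.1 kb from *ITGB5* (set 1, fold change of 1.62, FDR = 0.205), 104 kb from *ILK*, the kinase-like core of its complex (set 2, 1.28, FDR = 0.836), and 150 kb from *FERMT1*, which encodes kindlin-1 of epithelia (set 1, 2.48, FDR = 0.0131 in the authors' deposited table). Absence from a list of differences leaves unknown whether their chromatin was open or closed. Just inside the 50 kb limit lay the *ITGA6* region at 49.96 kb described above and an *ACTN1* region at 49.9 kb (fold change of 2.01, FDR = 0.0354), and just outside it a *FERMT2* region at 50.1 kb (2.70, FDR = 0.242). At the FDR limit, regions at *TLN1* (0.0491 and 0.0497) and *PXN* (0.0496) lay just inside, and regions at *TNS4* (0.0523), *PARVA* (0.0529) and the caveolin genes (0.0538) just outside.

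Other genes of the same pathway, 53 further integrin, adaptor, kinase, cytoskeletal and caveolar genes of which 50 were placed, were counted in the same way. Of these, 48 had 259 regions in the authors' deposited table, 83.0% in set 1, with 77 (29.7%) at an FDR under 0.05 (72 from set 1, 5 from set 2). The medians of the fold change were 2.34 in set 1 and 3.03 in set 2. Among the set 2 regions that passed were those inside *PTK2B*, the paralogue of focal adhesion kinase (fold change of 4.66, FDR = 4.29e-07), *TES* (3.82, FDR = 0.00183), *ITGA11* (4.83, FDR = 0.0136) and *RAPGEF1* (2.15, FDR = 0.0479). In set 1 the lowest FDRs belonged to *FHL2*, a LIM protein of adhesions (2.03, FDR = 4.35e-09), and to a region 32.9 kb from *TNS2* (1.88, FDR = 7.42e-07), which also lay 42.1 kb from the luminal keratin gene *KRT18*. *TNS2* and the leukocyte chain *ITGAL* had the most regions that passed, 8 and 7, all in set 1. The 8 of *TNS2* and the 7 of *ITGAL* all lay outside the gene in question.

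Cell identity could not be checked from levels, since the table lists only differences. Listed regions near markers of the cell types such a preparation could hold were 93.1% in set 1 for 10 luminal genes (72 regions), 51.3% for 8 basal genes (39), 76.9% for 7 fibroblast genes (13), 80.4% for 7 endothelial genes (46) and 83.9% for 7 immune genes (31). Over all listed regions 74.5% were in set 1. At an FDR under 0.05 the counts in set 1 and set 2 were 26 and 0, 6 and 0, 2 and 0, 17 and 4, and 8 and 1 in the same order. As shares of each list's regions, 36.1%, 15.4%, 15.4%, 45.7% and 29.0% passed, beside 27.8% of all listed regions. The endothelial share rested largely on *EGFL7*, with 10 of the 21 regions that passed. All 10 were in set 1 and outside *EGFL7*, 3.12 to 44.8 kb from an end. By set, 34.2% of all set 1 regions and 9.23% of all set 2 regions passed, so few set 2 regions passed anywhere. The lists overlapped in part: 1 region was counted for both the fibroblast list and the 39 genes, 2 for the luminal list and the further pathway genes (both at an FDR under 0.05), 2 for the basal list and the further pathway genes, and 2 for the luminal and basal lists. In whole preparations a change in the share of a cell type and a change of chromatin within a cell type cannot be told apart, and the part of either in the values above was not tested.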

How the data were processed

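ATAC-seq libraries were made from 50000 cells each, per the labels' protocols (3 dry period libraries with the numbers 1, 2 and 3, and 3 lactation period libraries with the numbers 1, 2 and 5). Bowtie2 2.2.5 and MACS2 stand in the submitters' processing notes without a role. Not given in the sources used here are the genome build, how differing regions were called, whether duplicates were removed, and whether cut sites were shifted. The deposited table holds, per the file headers, a fold change, a p-value, a Benjamini-Hochberg FDR, a length and a signal value. The fold change was read from its values as a linear ratio, and the length as the width in bp. The signal value, a score that the authors scaled with the fold change, was not used. The table holds no value per library, so the count tests planned for that case were not run and no p-value was computed.

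Region starts are given counted from 1, which is the authors' start plus 1, and ends are as the authors gave them. Genes came from RefSeq's gene table of ARS1.2, used for names, lengths and distances; its 39 symbols all matched, and 38 lie on numbered chromosomes. Since no build is named for the regions, the match was checked: on 29 of 29 chromosomes, centres fell within 1000 bp of gene ends more often at their own chromosome than at any other or after a shift of 100000 bp. The 736 regions on other sequences were left out of gene windows. A stretch is 4 or more regions with neighbouring centres at most 5 kb apart. The assignment was tested on simulated positions. Python 3.11.15, pandas 2.3.3 and scipy 1.17.1 were used.

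The genes, lists and alternatives were chosen with earlier results of these data known. Values are given for each gene's region of lowest FDR or highest fold change and for regions at an FDR under 0.05; where a gene has many, some are given by count and range. Lists were further pathway genes and luminal, basal, fibroblast, endothelial and immune markers. Alternatives were a window of 10000 bp, any overlap with the window, the nearest gene only, and other FDR or p limits.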

Additional observations from a re-analysis of the deposited data

How the results depend on the processing

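Placing regions by any overlap with the window in place of the centre changed no count. With a window of 10000 bp the regions numbered 209, of which 60 had an FDR under 0.05, and counting only regions whose nearest gene is one of the focal adhesion and integrin genes left 204 and 62. The share in set 1 was 85.6% and 83.3% under these, beside 84.5% in the main setting. The 95% Wilson interval of the main share, 80.1% to 88.0%, covers counting error only and takes close regions as independent. Both alternatives keep part of the same regions, so lying within that interval is no test of them. The share in set 1 was 97.9% among regions at an FDR under 0.05 and 96.4% at an unadjusted p under 1e-05, beside 91.5% and 82.8% of all listed regions at these limits. Of the 322 regions, 43 had an FDR under 0.01 and 55 passed the unadjusted limit, beside 13.1% and 17.0% of all listed regions. At the unadjusted limit 22 genes had a region, and the same count over all genes was not made. The median fold change of set 1 regions was 2.10 at an FDR under 0.05 and 2.02 at the unadjusted limit; for set 2 it rests on 2 regions there (4.62). No paired analysis was possible because the table holds no value per library. Leaving out libraries, other normalizations and a filter on low counts were not run for the same reason. Depth and the spread between libraries therefore put no stated limit on any value.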
